A study of Homo sapiens with 12 samples.

Results

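The genes described here are 45 genes of DNA replication origins and forks, listed by their known function, though with earlier results of these data known. Probe sets that the array annotation ties to more than 1 gene were set aside, and where a gene had several probe sets the brightest over the 12 arrays stood for it. All 45 genes were measured, through 68 probe sets in all, 29 genes by 1 probe set and 16 by several, among 11963 genes on the array. The clearest differences were these: MCM7, a subunit of the replicative helicase, fell with 5-fluorouracil (5-FU) and with the combination, CHAF1B of the chromatin assembly factor rose with 5-FU, and POLA2, LIG1, FEN1, CDC45 and CHAF1B were lower with thymoquinone (TQ) than with 5-FU, whereas ORC2 was higher. Each of these calls was lost in at least 1 other setting, and how many further genes were called depended on the test and on 2 arrays that stood apart from their replicates. Such calls were no rarer in all genes with 5-FU (4.4% of the 45, 7.29% of all genes) or with the combination (2.2%, 2.63%). For TQ against 5-FU the shares were near each other (13.3%, 11.1%).

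DNA replication begins at origins, which are marked by the origin recognition complex. A ring of the MCM2 to MCM7 subunits is loaded there by CDC6 and CDT1, and geminin, which binds CDT1, holds this loading in check. A kinase of CDC7 and DBF4 then activates the ring, CDC45 and the GINS complex join it, and the resulting helicase opens the duplex ahead of the polymerases. Polymerase alpha with primase begins each strand, polymerases delta and epsilon extend it on the PCNA clamp, and FEN1 and LIG1 join the pieces of the lagging strand. Many of these genes are transcribed as cells approach S phase under control of the E2F factors, and 5-FU is known as a blocker of thymidylate synthase, the enzyme that supplies thymidylate for this synthesis.

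RNA was measured on 12 Affymetrix arrays of RKO cells, a line from a human colorectal tumour, in 4 groups of 3 arrays after 24 h. The groups were control cells, cells given TQ, a quinone of black cumin seed, at 20 µM, cells given 5-FU at 10 µg/mL (76.8 µM), and cells given both drugs together at these doses (TQ+5-FU). The control cells are untreated by the labels and carried DMSO by the methods of the study, so a solvent effect cannot be told apart from the drugs in comparisons with control. All values come from 1 cell line at 1 time, and since the labels do not say which arrays come from separate cultures, the p-values measure only the spread between these arrays. Values are log2 signals, differences are differences of log2 values from limma, and "rose" or "fell" is used of a gene whose Benjamini-Hochberg adjusted p over 22215 probe sets was under 0.05. Fewer cells in S phase and less RNA per cell cannot be told apart in such bulk samples.

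Replicate 3 of 5-FU and replicate 2 of TQ+5-FU stood apart and are called the displaced arrays below. The mean correlation of 5-FU replicate 3 with its own replicates was 0.911, against 0.952 to 0.998 for the other arrays. That of TQ+5-FU replicate 2 was 0.978, below the 0.984 and 0.99 of its replicates. It was above the 0.952 and 0.957 of 5-FU replicates 1 and 2, whose means include replicate 3. Its poly-A spike-in signal was the highest, 9.47, followed by 8.97 in control replicate 3 and 8.95 in TQ+5-FU replicate 2, whereas the other arrays lay between 8.22 and 8.84. Array medians ran from 6.34 to 6.57. Of the 9 epithelial and colon markers, KRT18 (12.1) and EPCAM (9.04) had high signals in control cells, CDX1 (6.87), CDX2 (6.88) and KRT8 (6.74) signals near the middle of all genes and LGALS4 a lower one (5.44), while CDH1 (3.72), VIL1 (3.65) and KRT19 (3.60) were among the dimmest. The 6 leukocyte genes measured lay between 2.88 (LYZ) and 6.15 (CD3E), with PTPRC at 3.96, the 3 endothelial genes between 4.15 (CDH5) and 4.999 (VWF), and the 7 fibroblast genes between 2.42 (LUM) and 8.23 (COL1A1), with COL3A1 at 3.97. Against the control mean, the medians of the epithelial, leukocyte, fibroblast and endothelial lists lay at 0.73, 0.69, 0.63 and 0.37 in 5-FU replicate 3, beside 0.37 for all genes, and between -0.33 and 0.38 in the other arrays. The part of these marker genes in the values below was not tested.

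Promoters are shown for 4 of the 7 genes called over all arrays, MCM7, POLA2, LIG1 and CHAF1B, since letters for E2F factors are the textbook link between such genes; the first 3 hold such letters and CHAF1B does not. RefSeq promoters (build GRCh38.p14, 250 bases before the start and 50 from it) were matched for 40 of the 45 genes. MCM4, MCM5, POLD3, RPA2 and RPA3 were not matched. The letters TTTCCCGC, TTTCGCGC, TTTGCCGC and TTTGGCGC were searched on both strands, where a word and the reverse complement of another can overlap by 4 bases. Capitals mark the matches, and each run reads 5′ to 3′ along the gene. The lines give MCM7 (chr7:100101348-100101647, minus strand), POLA2 (chr11:65261712-65262011, plus strand), LIG1 (chr19:48170295-48170594, minus strand) and CHAF1B (chr21:36385142-36385441, plus strand).
MCM7: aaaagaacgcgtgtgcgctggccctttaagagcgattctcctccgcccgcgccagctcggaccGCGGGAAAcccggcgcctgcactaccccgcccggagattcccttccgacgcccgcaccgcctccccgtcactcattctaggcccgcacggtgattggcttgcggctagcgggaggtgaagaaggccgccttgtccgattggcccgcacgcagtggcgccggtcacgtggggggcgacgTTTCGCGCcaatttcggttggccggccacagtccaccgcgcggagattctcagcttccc
POLA2: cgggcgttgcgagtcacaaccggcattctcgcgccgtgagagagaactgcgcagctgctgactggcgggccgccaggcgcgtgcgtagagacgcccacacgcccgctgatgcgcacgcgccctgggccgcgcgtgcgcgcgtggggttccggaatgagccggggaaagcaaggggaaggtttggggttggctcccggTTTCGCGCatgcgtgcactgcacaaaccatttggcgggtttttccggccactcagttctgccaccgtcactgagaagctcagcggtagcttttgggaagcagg
LIG1: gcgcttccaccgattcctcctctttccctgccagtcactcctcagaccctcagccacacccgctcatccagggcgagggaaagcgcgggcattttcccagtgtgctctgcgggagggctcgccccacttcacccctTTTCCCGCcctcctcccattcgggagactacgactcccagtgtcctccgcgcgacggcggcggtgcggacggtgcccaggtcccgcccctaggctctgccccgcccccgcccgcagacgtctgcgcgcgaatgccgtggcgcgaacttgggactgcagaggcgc
CHAF1B: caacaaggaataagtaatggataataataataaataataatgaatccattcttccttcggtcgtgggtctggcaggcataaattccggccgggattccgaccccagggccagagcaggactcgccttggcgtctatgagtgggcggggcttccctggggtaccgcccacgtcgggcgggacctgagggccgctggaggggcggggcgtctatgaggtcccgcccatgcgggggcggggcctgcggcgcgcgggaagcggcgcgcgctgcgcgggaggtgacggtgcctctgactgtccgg

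With the start base counted as 0, the matches began at -187 and -9 in MCM7, at -53 in POLA2 and at -114 in LIG1. In all, 15 of the 40 promoters (37.5%) held such a word, against 467 of 9562 promoters of genes on the array (4.9%) and 908 of 27305 promoters in the whole table (3.3%). Of the 7 genes called over all arrays, 3 held one and 4 did not (ORC2, CDC45, FEN1 and CHAF1B). The other members with a match were ORC3, CDC6, CDT1, MCM2, MCM3, MCM6, GINS1, POLA1, POLE, POLE2, PCNA and RFC3, of which MCM6 had 4. The letters CCAAT were in 52.5% of the members' promoters and 37.3% of those of all array genes, and GGGCGG, the GC box, in 72.5% and 63.1%. A match describes these letters only and is not a binding site.

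Across all arrays, few of the 45 genes passed. With TQ 0 were called by limma, where 0.267% of all genes were. At an unadjusted p under 0.05, 0 were higher and 14 (31.1%) lower with TQ, beside 3.37% and 6.30% of all genes. With 5-FU 1 rose and 1 fell, beside 7.29% of all genes, and with TQ+5-FU 1 fell, beside 2.63%. When TQ was added to 5-FU 0 passed (0.802% of all genes), with 1 higher (4.75%) and 8 lower (5.48%) unadjusted, which are 2.2% and 17.8% of members. When 5-FU was added to TQ 0 passed (1.15%), with 2 higher (9.38%) and 5 lower (3.35%) unadjusted, or 4.4% and 11.1% of members. Directly compared, 1 gene was higher and 5 were lower with TQ than with 5-FU, 13.3% of members, where 11.1% of all genes were called. No interaction of the drugs passed in limma, where 0.167% of all genes did. At an unadjusted p under 0.05 no member had one either, where 539 of 11963 genes had a positive and 215 a negative one. In a fit of TQ and 5-FU arrays alone none of the 6 genes passed by limma (adjusted p = 0.075 to 0.23). With the test of the study's methods across the groups, followed by Tukey's comparisons, 6 members fell with TQ (3.06% of genes), 6 were lower with TQ+5-FU than with 5-FU (3.88%) and 1 was higher and 1 lower than with TQ (4.66%), and by the methods' test of each pair of groups, after adjustment, 8 rose and 10 fell with TQ (17.5%).

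Leaving out the displaced arrays, a choice made after the data were seen, raised these counts along with those of all genes. With TQ 17 rose and 14 fell (32.4% of all genes called), with 5-FU 11 rose and 8 fell (28.3%), and with the combination 3 rose and 15 fell (22.7%). Against 5-FU alone the combination had 2 higher and 6 lower (6.91%), and against TQ alone 1 higher and 10 lower (12.7%). Between TQ and 5-FU 13 were higher and 14 lower with TQ (30.9%), and 13 interactions passed, 1 positive and 12 negative (11.1%). In that fit 44 of the 45 genes were called in at least 1 of the 7 comparisons, the exception being RPA2. The sign of the difference changed between the fits for 19 members with 5-FU and for 13 with the combination, but for 0 with TQ, whose arrays and controls were in both. A fit of control and TQ arrays alone called 15 higher and 13 lower with TQ (30.9% of genes). The comparisons with control share the control arrays, so their counts are not independent.

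Separation of the arrays was also counted, which needs no model and keeps every array. With TQ 36 of 45 members (80.0%) had all 3 arrays above or all below the 3 controls, 18 each way, where 46.4% of all genes did. With 5-FU 17 were separated (37.8%; 5 above and 12 below), where 25.7% of all genes were, and with TQ+5-FU 20 (44.4%; 1 above and 19 below), where 24.7% were. ORC6 was the gene above with the combination.

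**Figure D1:**
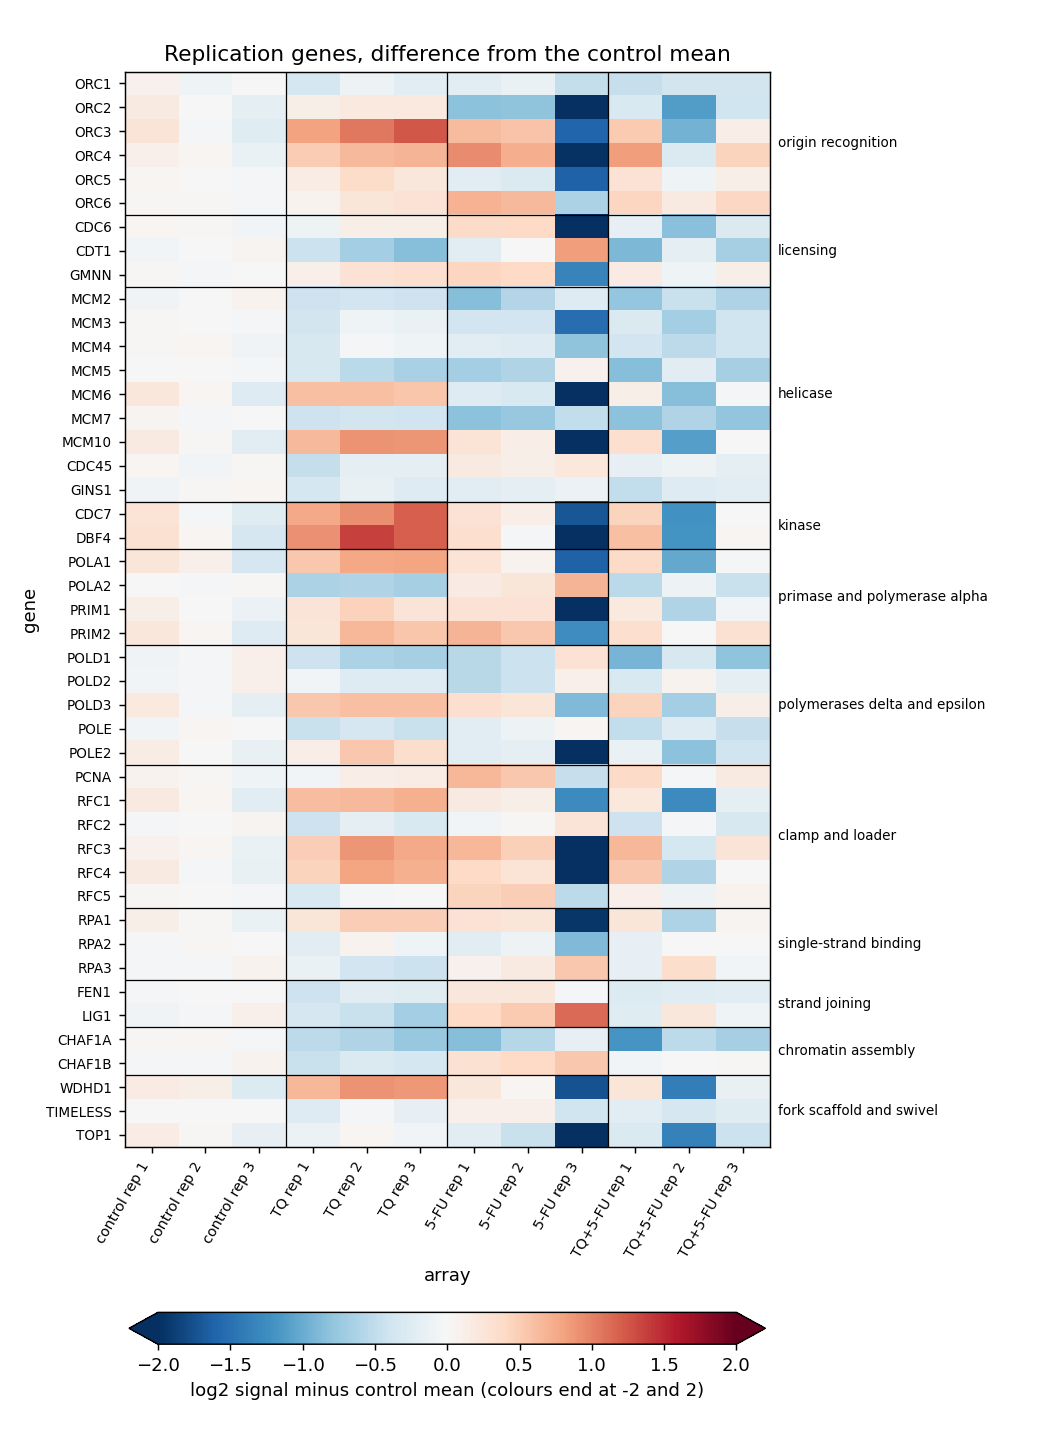
Log2 signal of each of the 45 genes in each of the 12 arrays minus the gene's mean over the control arrays, with genes grouped by role and colours ending at -2 and 2. Columns of TQ show red and blue genes side by side, 18 above and 18 below all controls, and 5-FU replicate 3 holds the deepest blue, with 24 genes more than 1 below the mean of its replicates.

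Among the helicase genes, MCM7 passed over all arrays. MCM7 had signals of 12.16, 12.06 and 12.09 in the controls, 11.69, 11.75 and 11.70 in TQ arrays, 11.29, 11.35 and 11.61 in 5-FU arrays, and 11.28, 11.50 and 11.32 in arrays of both drugs. All treated arrays lay below all controls, and the arrays with 5-FU lay below those with TQ. The difference was -0.69 (SE 0.11, adjusted p = 0.0050) with 5-FU and -0.74 (SE 0.11, adjusted p = 0.0074) with the combination, and its other probe set fell as well (-0.61 and -0.59). The call with the combination was lost without control replicate 1 (adjusted p = 0.055), and that with 5-FU in a fit of control and 5-FU arrays alone (adjusted p = 0.12) and in the methods' test of this pair of groups (adjusted p = 0.0996). With TQ alone it was -0.39 (adjusted p = 0.22), and -0.39 (adjusted p = 0.0019) without the displaced arrays, where MCM7 fell under all 3 treatments.

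CDC45, which joins the ring to form the active helicase, had 9.19, 9.10 and 9.18 in the controls, 8.68, 8.97 and 8.97 in TQ arrays, 9.34, 9.28 and 9.36 in 5-FU arrays, and 9.00, 9.05 and 8.96 in arrays of both drugs. The TQ arrays were all below the controls and the 5-FU arrays all above. CDC45 was lower with TQ than with 5-FU (-0.45, SE 0.11, adjusted p = 0.025), a call lost without any 1 of the TQ arrays (adjusted p = 0.062 to 0.086) and with the replicate number as a block (adjusted p = 0.056). MCM6, another ring subunit, had 10.23, 10.05 and 9.74 in the controls, 10.60, 10.61 and 10.56 in TQ arrays, 9.75, 9.71 and 7.42 in 5-FU arrays, and 10.13, 9.16 and 9.97 in arrays of both drugs. The TQ arrays were tightly together above the controls, while 5-FU replicate 3 was far below every other array. Its difference with TQ was 0.59 (adjusted p = 0.77) and its SE 0.53, against 0.59 (SE 0.11, adjusted p = 0.0031) when the displaced arrays were left out, so MCM6 rose there while MCM2, MCM5 and MCM7 of the same ring fell.

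MCM10, which helps to start the helicase, repeated this pattern with 8.24, 8.10 and 7.86 in the controls, 8.71, 8.97 and 8.95 in TQ arrays, 8.35, 8.21 and 5.53 in 5-FU arrays, and 8.41, 6.97 and 8.07 in arrays of both drugs. It was above all controls in the TQ arrays and lowest in 5-FU replicate 3, and it rose with TQ by 0.81 (SE 0.12, adjusted p = 0.0011) without the displaced arrays. MCM3 had 10.93, 10.91 and 10.88 in the controls, 10.55, 10.83 and 10.77 in TQ arrays, 10.52, 10.52 and 9.39 in 5-FU arrays, and 10.61, 10.23 and 10.51 in arrays of both drugs. All its treated arrays were below all controls, and without the displaced arrays it fell with 5-FU (-0.39, adjusted p = 0.011) and with both drugs (-0.34, adjusted p = 0.024).

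MCM4 had 11.37, 11.38 and 11.27 in the controls, 11.02, 11.30 and 11.25 in TQ arrays, 11.12, 11.08 and 10.53 in 5-FU arrays, and 10.96, 10.82 and 10.94 in arrays of both drugs. Its arrays with 5-FU or both drugs lay below the controls, and its probe sets differed in passing: the one used had -0.44 (adjusted p = 0.26) with the combination, whereas 2 of the other 3 fell, with differences of -0.73 (adjusted p = 0.027) and -1.28 (adjusted p = 0.0046). MCM2 and MCM5 had differences of -0.61 (adjusted p = 0.067) and -0.57 (adjusted p = 0.30) with the combination, and both fell without the displaced arrays (-0.70 and -0.76, adjusted p = 0.00074 for each). Of the 9 helicase genes, GINS1 included, 0 rose and 1 fell with 5-FU (7.29% of all genes called) and likewise with both drugs (2.63%), with medians of -0.56 and -0.44 beside 0.091 and 0.014 for all genes. Without the displaced arrays 4 fell with 5-FU (28.3% of all genes called) and 6 with the combination (22.7%), 0 rose, and the medians were -0.28 and -0.35.

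**Figure D2:**
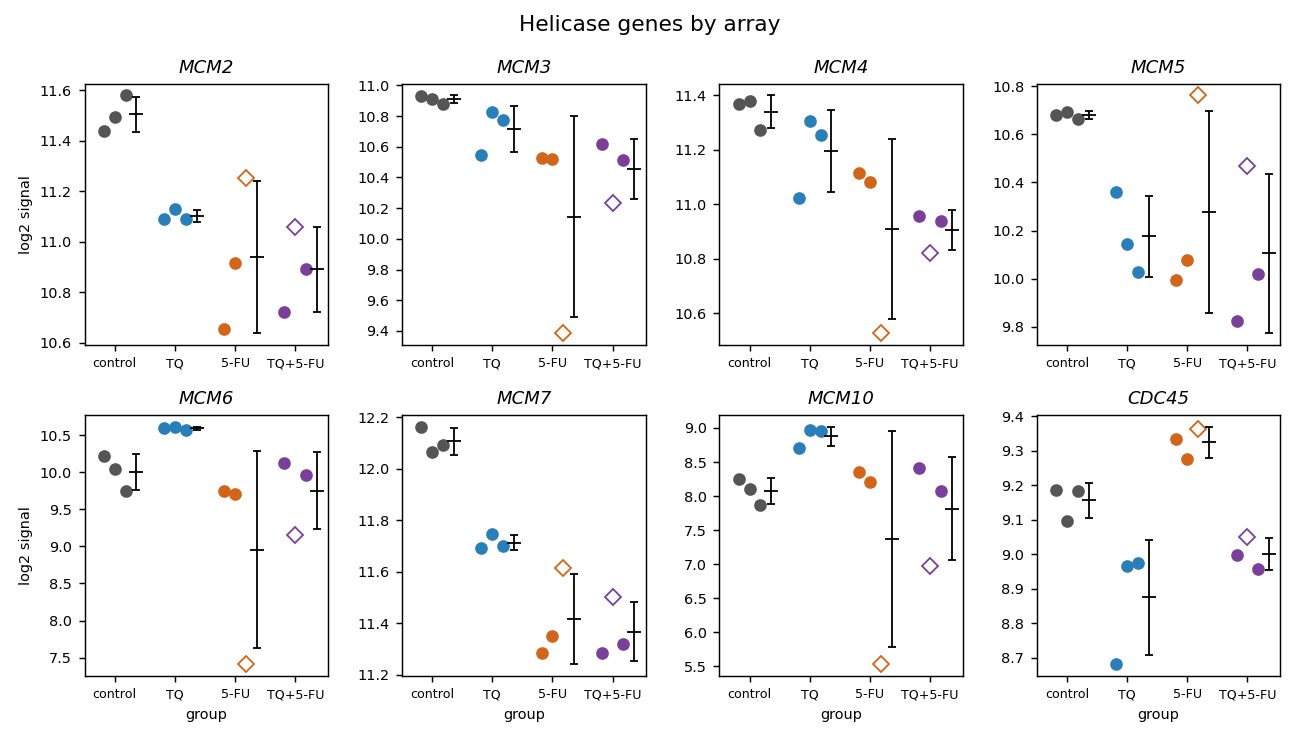
Log2 signals of 8 helicase genes by array; points are arrays, open diamonds the displaced arrays, and bars the group mean with its SD (n = 3). MCM7 lies between 11.28 and 11.75 in every treated array and at 12.06 or higher in every control, whereas MCM6 and MCM10 are highest with TQ and drop to 7.42 and 5.53 in 5-FU replicate 3.

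The origin recognition genes did not move together. ORC2 had 8.65, 8.48 and 8.27 in the controls, 8.58, 8.66 and 8.66 in TQ arrays, 7.64, 7.66 and 6.26 in 5-FU arrays, and 8.16, 7.34 and 8.06 in arrays of both drugs. The TQ arrays overlapped the controls, all arrays with 5-FU were below both, and ORC2 was higher with TQ than with 5-FU by 1.45 (SE 0.35, adjusted p = 0.028). The call was lost without any 1 of the TQ arrays (adjusted p = 0.075 to 0.099) and in Tukey's comparison (adjusted p = 0.15). Without the displaced arrays that value was 0.98 (SE 0.11, adjusted p = 8.6e-05), and ORC2 fell with 5-FU (-0.81, adjusted p = 0.00024).

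ORC3 had 7.72, 7.44 and 7.23 in the controls, 8.26, 8.51 and 8.70 in TQ arrays, 8.09, 8.04 and 5.88 in 5-FU arrays, and 7.99, 6.51 and 7.60 in arrays of both drugs. It was above all controls in the TQ arrays and in 5-FU replicates 1 and 2, and 5-FU replicate 3 was the lowest array. Its difference with TQ was 1.03 in both fits, with an SE of 0.55 (adjusted p = 0.62) over all arrays and of 0.15 (adjusted p = 0.00095) without the displaced ones. ORC5 had 10.20, 10.16 and 10.13 in the controls, 10.31, 10.53 and 10.38 in TQ arrays, 9.93, 9.87 and 8.54 in 5-FU arrays, and 10.45, 10.07 and 10.28 in arrays of both drugs. The 5-FU arrays lay below the controls and those of the combination spanned them, and without the displaced arrays ORC5 was higher in the combination than with 5-FU by 0.46 (SE 0.10, adjusted p = 0.022). Its dimmest probe set had -0.07 with TQ where the others had 0.25 and 0.24. Of the rest, ORC4 and ORC6 rose with 5-FU without the displaced arrays (0.84, adjusted p = 0.00062 and 0.67, adjusted p = 0.00020), and ORC1 fell with the combination (-0.41, adjusted p = 0.011). Over all arrays the difference of ORC4 with 5-FU had the other sign, -0.10.

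Of the licensing genes, CDT1 lay below and GMNN above all controls in the TQ arrays, while CDC6 spanned them. CDT1, which loads the ring, had 8.91, 8.96 and 9.03 in the controls, 8.53, 8.29 and 8.11 in TQ arrays, 8.74, 8.97 and 9.79 in 5-FU arrays, and 8.07, 8.77 and 8.30 in arrays of both drugs. The TQ arrays were all below the controls, the combination too, and 5-FU replicate 3 was the highest of all. CDT1 had -0.66 with TQ (adjusted p = 0.44) and fell by 0.66 (SE 0.11, adjusted p = 0.0021) without the displaced arrays, where it was also lower in the combination than with 5-FU (-0.67, adjusted p = 0.019). GMNN, the gene of geminin, which binds CDT1, had 11.05, 10.99 and 11.02 in the controls, 11.12, 11.30 and 11.36 in TQ arrays, 11.45, 11.42 and 9.69 in 5-FU arrays, and 11.18, 10.94 and 11.14 in arrays of both drugs. It lay above the controls in the TQ arrays and in 5-FU replicates 1 and 2, and without the displaced arrays it rose with 5-FU by 0.41 (SE 0.09, adjusted p = 0.0048) and with TQ by 0.24 (adjusted p = 0.037). Over all arrays its mean with 5-FU (10.85) was below the control mean (11.02). The difference of GMNN with TQ was not called in a fit of control and TQ arrays alone (adjusted p = 0.062). Nor was it with the poly-A spike-in signal as a covariate (0.08, adjusted p = 0.86).

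CDC6, the partner of CDT1 in loading, had 9.45, 9.45 and 9.36 in the controls, 9.32, 9.54 and 9.53 in TQ arrays, 9.81, 9.82 and 7.36 in 5-FU arrays, and 9.26, 8.59 and 9.13 in arrays of both drugs. TQ arrays spanned the controls, 5-FU replicates 1 and 2 were above and replicate 3 far below, and the combination was below the controls throughout. Without the displaced arrays CDC6 rose with 5-FU by 0.39 (adjusted p = 0.0088) and was lower in the combination than with 5-FU (-0.61, SE 0.10, adjusted p = 0.0058). Over all arrays its difference with 5-FU had the other sign, -0.43, and the combination differed from 5-FU by 0.001.

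Both genes of the origin-firing kinase had their highest signals with TQ. DBF4, the regulatory subunit, had 9.47, 9.20 and 8.82 in the controls, 10.07, 10.53 and 10.36 in TQ arrays, 9.49, 9.14 and 6.36 in 5-FU arrays, and 9.76, 7.96 and 9.21 in arrays of both drugs. The TQ arrays were above every other array, and those with 5-FU spanned more than 3 log2 units, with replicate 3 the lowest. CDC7, the catalytic subunit, had 7.86, 7.54 and 7.34 in the controls, 8.34, 8.52 and 8.77 in TQ arrays, 7.87, 7.71 and 5.86 in 5-FU arrays, and 8.02, 6.37 and 7.58 in arrays of both drugs. It showed the same order, with TQ above all other arrays. The differences with TQ were 1.16 (SE 0.72, adjusted p = 0.68) and 0.96 (SE 0.53, adjusted p = 0.63) over all arrays, and without the displaced ones both genes rose, by 1.16 (SE 0.19, adjusted p = 0.0016) and 0.96 (SE 0.16, adjusted p = 0.0017). In that fit both were lower in the combination than with TQ, and CDC7 had an interaction of -0.95 (adjusted p = 0.040).

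The 4 genes of polymerase alpha and primase were split between POLA2 and the others. POLA2, the accessory subunit, had 9.72, 9.68 and 9.73 in the controls, 9.07, 9.11 and 9.04 in TQ arrays, 9.87, 9.95 and 10.39 in 5-FU arrays, and 9.17, 9.60 and 9.25 in arrays of both drugs. Each TQ array was below every control, each 5-FU array above, and no array of the combination reached the controls. POLA2 was lower with TQ than with 5-FU (-0.997, SE 0.16, adjusted p = 0.0038), also without the displaced arrays (-0.84, SE 0.08, adjusted p = 3.0e-05). In that fit it fell with TQ (-0.63, adjusted p = 0.00031) and with both drugs (-0.50, adjusted p = 0.0012), and was lower in the combination than with 5-FU (-0.70, adjusted p = 0.0010).

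POLA1, the catalytic subunit, had 7.49, 7.36 and 6.92 in the controls, 7.79, 8.04 and 8.04 in TQ arrays, 7.54, 7.33 and 5.64 in 5-FU arrays, and 7.64, 6.24 and 7.23 in arrays of both drugs. In contrast to POLA2 its TQ arrays were above all controls, and without the displaced arrays POLA1 rose with TQ by 0.70 (SE 0.16, adjusted p = 0.0069). PRIM1 and PRIM2, the primase subunits, rose there too (0.33, adjusted p = 0.025 and 0.48, adjusted p = 0.021), and PRIM2 also rose with 5-FU (0.61, adjusted p = 0.012). Over all arrays the mean of PRIM2 with 5-FU (7.40) was just under the control mean (7.41).

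Among the elongating polymerases, POLD1, the catalytic subunit of polymerase delta, had 9.55, 9.59 and 9.71 in the controls, 9.20, 8.98 and 8.95 in TQ arrays, 9.07, 9.19 and 9.91 in 5-FU arrays, and 8.68, 9.29 and 8.81 in arrays of both drugs. Its TQ arrays and those of the combination were below all controls, whereas 5-FU replicate 3 was above them. POLD1 had -0.69 with the combination (adjusted p = 0.19) and fell by 0.87 (SE 0.10, adjusted p = 0.00026) without the displaced arrays, where it fell with each drug alone as well (-0.58 with TQ, -0.49 with 5-FU). POLE2, a subunit of polymerase epsilon, had 9.66, 9.52 and 9.38 in the controls, 9.65, 10.06 and 9.87 in TQ arrays, 9.29, 9.32 and 6.57 in 5-FU arrays, and 9.38, 8.70 and 9.11 in arrays of both drugs. 5-FU replicate 3 was far below every other array, and the difference with 5-FU was -1.12 (adjusted p = 0.36) over all arrays and -0.21 (adjusted p = 0.3) without the displaced ones. POLE, the catalytic subunit, fell with TQ (-0.40, adjusted p = 0.0023) and with both drugs (-0.48, adjusted p = 0.0021) in that fit, POLD2 fell with 5-FU (-0.49, adjusted p = 0.0034) and POLD3 rose with TQ (0.58, adjusted p = 0.0030).

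PCNA, the sliding clamp, and the 5 subunits of its loader gave 0 calls over all arrays. PCNA was at 13.19 and 13.06 in 5-FU replicates 1 and 2, at 12.05 in replicate 3, and between 12.43 and 12.59 in the controls. Without the displaced arrays PCNA rose with 5-FU by 0.60 (SE 0.10, adjusted p = 0.0012). RFC3 had 8.92, 8.88 and 8.71 in the controls, 9.33, 9.72 and 9.59 in TQ arrays, 9.50, 9.31 and 6.36 in 5-FU arrays, and 9.51, 8.49 and 9.10 in arrays of both drugs. It was above the controls in the TQ arrays and in 5-FU replicates 1 and 2 and had the largest drop of all members in replicate 3, -3.05 against their mean. Without the displaced arrays all 3 comparisons of RFC3 with control passed, TQ giving a rise of 0.71 (adjusted p = 0.0027), 5-FU of 0.57 (adjusted p = 0.014) and the combination of 0.47 (adjusted p = 0.044). Over all arrays the difference of RFC3 with 5-FU had the other sign, -0.45.

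RFC1, the large subunit, had 7.51, 7.37 and 7.12 in the controls, 7.94, 7.99 and 8.04 in TQ arrays, 7.51, 7.45 and 6.07 in 5-FU arrays, and 7.54, 6.06 and 7.15 in arrays of both drugs. Its TQ arrays were above all others, and its probe sets had 0.66, 0.94 and -0.03 with TQ, the last from a dim probe set with a mean signal of 3.71. RFC5 had 10.25, 10.23 and 10.21 in the controls, 9.93, 10.21 and 10.23 in TQ arrays, 10.67, 10.73 and 9.71 in 5-FU arrays, and 10.33, 10.12 and 10.30 in arrays of both drugs. Here 5-FU replicates 1 and 2 were the highest arrays and replicate 3 the lowest, and its probe sets disagreed in sign with 5-FU (0.14, 0.34 and -0.22). RFC4 rose with TQ (0.65, adjusted p = 0.0071) and RFC2 fell with TQ (-0.30, adjusted p = 0.016) without the displaced arrays.

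The genes of RPA, which coats single-stranded DNA, did not change as a unit either. RPA1 had 10.76, 10.66 and 10.51 in the controls, 10.89, 11.13 and 11.14 in TQ arrays, 10.93, 10.88 and 8.70 in 5-FU arrays, and 10.88, 10.02 and 10.70 in arrays of both drugs. Its TQ arrays were above all controls and both displaced arrays far below, and RPA1 rose with TQ by 0.41 (SE 0.10, adjusted p = 0.0094) without them, where RPA3 fell by 0.31 (adjusted p = 0.025). RPA2 passed in neither fit in any comparison, with -0.40 (adjusted p = 0.27) with 5-FU over all arrays.

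Both genes that finish the lagging strand were lower with TQ than with 5-FU. LIG1, DNA ligase 1, had 9.28, 9.31 and 9.44 in the controls, 9.00, 8.89 and 8.66 in TQ arrays, 9.73, 9.86 and 10.47 in 5-FU arrays, and 9.10, 9.57 and 9.25 in arrays of both drugs. The TQ arrays were all below the controls and the 5-FU arrays all above, without overlap, while the combination spanned the controls. LIG1 was lower with TQ than with 5-FU (-1.17, SE 0.20, adjusted p = 0.0057). The same held without the displaced arrays (-0.94, SE 0.11, adjusted p = 0.00013), where LIG1 rose with 5-FU (0.45, adjusted p = 0.011), fell with TQ (-0.49, adjusted p = 0.0041) and was lower in the combination than with 5-FU (-0.62, adjusted p = 0.014).

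FEN1, the flap endonuclease, had 11.61, 11.65 and 11.65 in the controls, 11.22, 11.41 and 11.39 in TQ arrays, 11.87, 11.87 and 11.61 in 5-FU arrays, and 11.36, 11.39 and 11.43 in arrays of both drugs. TQ arrays and those of the combination were below all controls, and 5-FU replicates 1 and 2 above, with replicate 3 just under the lowest control. FEN1 was lower with TQ than with 5-FU (-0.44, SE 0.11, adjusted p = 0.028), and its other probe set, at -0.50 (adjusted p = 0.015), was lower too. The call was lost without any 1 of the controls (adjusted p = 0.052 to 0.054) or TQ arrays (adjusted p = 0.077 to 0.098), without 5-FU replicate 2 (adjusted p = 0.062) or TQ+5-FU replicate 3 (adjusted p = 0.051), and with the replicate block (adjusted p = 0.060). In the combination against 5-FU the used probe set had -0.39 (adjusted p = 0.18) and the other passed with -0.55 (adjusted p = 0.049), and without the displaced arrays the used one passed as well (-0.47, adjusted p = 0.013).

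The 2 measured subunits of chromatin assembly factor 1, which puts histones on new DNA, parted under 5-FU. CHAF1B had 8.12, 8.09 and 8.20 in the controls, 7.69, 7.85 and 7.78 in TQ arrays, 8.44, 8.54 and 8.68 in 5-FU arrays, and 8.09, 8.13 and 8.15 in arrays of both drugs. All TQ arrays were below and all 5-FU arrays above the controls, and the combination overlapped the controls. CHAF1B rose with 5-FU by 0.42 (SE 0.10, adjusted p = 0.033) and was lower with TQ than with 5-FU (-0.78, SE 0.10, adjusted p = 0.0013). The rise with 5-FU lost its call when arrays were normalized or centred again (0.48, adjusted p = 0.056 and 0.47, adjusted p = 0.099) and when any control array was left out (adjusted p = 0.083 to 0.15), and held without the displaced arrays (0.35, adjusted p = 0.0093).

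CHAF1A had 10.39, 10.39 and 10.33 in the controls, 9.84, 9.76 and 9.61 in TQ arrays, 9.52, 9.80 and 10.20 in 5-FU arrays, and 9.19, 9.85 and 9.70 in arrays of both drugs. Every treated array was below every control. Over all arrays TQ gave -0.63 (adjusted p = 0.27), 5-FU gave -0.53 (adjusted p = 0.17) and the combination gave -0.79 (adjusted p = 0.072), and without the displaced arrays CHAF1A fell under each treatment, with differences of -0.63 (adjusted p = 0.0042), -0.71 (adjusted p = 0.0037) and -0.93 (adjusted p = 0.0013).

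**Figure D3:**
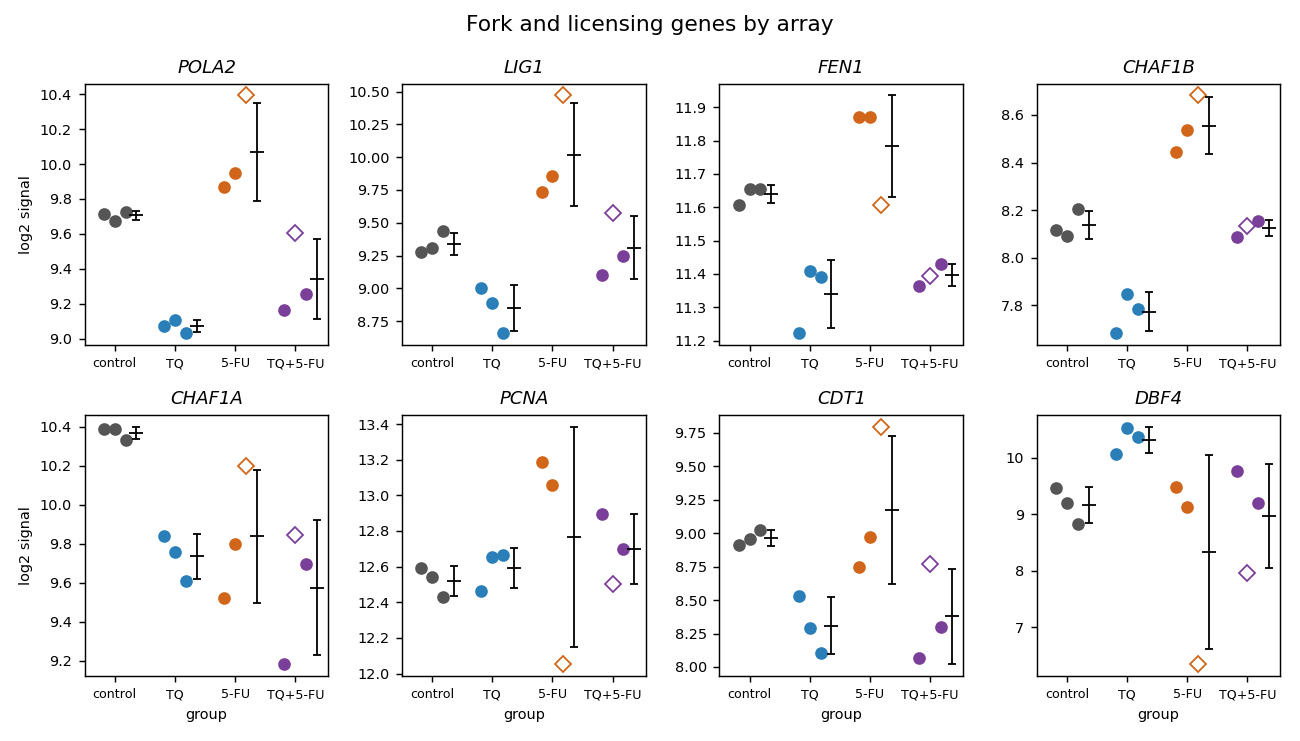
Log2 signals of 8 fork and licensing genes by array; points are arrays, open diamonds the displaced arrays, and bars the group mean with its SD (n = 3). POLA2, LIG1 and CHAF1B lie below all controls with TQ and above them with 5-FU in every array, and CHAF1A lies at 10.20 or lower in every treated array against 10.33 or higher in controls.

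WDHD1, which links polymerase alpha to the helicase, had 6.39, 6.34 and 5.95 in the controls, 6.89, 7.12 and 7.09 in TQ arrays, 6.45, 6.26 and 4.48 in 5-FU arrays, and 6.46, 4.84 and 6.08 in arrays of both drugs. It followed DBF4 in being above all other arrays with TQ and lowest in the displaced arrays, and it rose with TQ by 0.81 (SE 0.14, adjusted p = 0.0019) without them. With the combination its probe sets had -0.43, 0.10 and -0.46. TOP1, the topoisomerase that relieves twist ahead of the fork, had 11.96, 11.83 and 11.65 in the controls, 11.69, 11.85 and 11.76 in TQ arrays, 11.61, 11.37 and 9.36 in 5-FU arrays, and 11.53, 10.45 and 11.38 in arrays of both drugs. All arrays with 5-FU were below the controls, and TOP1 fell with the combination (-0.36, adjusted p = 0.045) without the displaced arrays. TIMELESS, of the fork protection complex, had 9.77, 9.75 and 9.78 in the controls, 9.50, 9.72 and 9.61 in TQ arrays, 9.87, 9.87 and 9.37 in 5-FU arrays, and 9.54, 9.43 and 9.52 in arrays of both drugs. The combination was below all controls, and its dimmer probe set differed in sign with 5-FU (0.10 against -0.06).

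The displacement of both arrays was uneven over the members. Against the control mean, the members had a median of -0.88 in 5-FU replicate 3, near the -0.86 of 23 other replication genes and the -0.74 of 14 mitosis genes, while all genes had 0.37. In 5-FU replicate 3 the 45 genes had a median of -1.13 against the mean of replicates 1 and 2, from -3.05 for RFC3 to 0.94 for CDT1, and 24 (53.3%) lay more than 1 below, beside 18.9% of all genes and a median of 0.44 for these. In TQ+5-FU replicate 2 the median was -0.25, and 7 genes (15.6%) lay more than 1 below, beside 8.3% of all genes. Members high with TQ were among those that dropped most: DBF4 had -2.96 in 5-FU replicate 3, MCM10 -2.75, ORC3 -2.18 and CDC7 -1.93. Others that differed little with TQ also dropped in that array, CDC6 by -2.45 (0.04 with TQ) and TOP1 by -2.13 (-0.04 with TQ). Some that were low with TQ lay above their replicates there, CDT1 (0.94), POLD1 (0.78), LIG1 (0.68), CHAF1A (0.54) and POLA2 (0.48).

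Over the 45 genes the displacement of 5-FU replicate 3 and the difference of TQ from control had a Pearson r of -0.88 (Spearman -0.90), beside -0.70 over all 11963 genes. The same displacement and the difference between control replicates 3 and 1 had an r of 0.79, beside 0.69 over all genes, and the displacement of TQ+5-FU replicate 2 had -0.94 with the TQ difference and 0.91 with that between the controls, beside -0.74 and 0.74 over all genes. These are descriptions across genes, which are not independent, and no array is on both axes. The poly-A signal was higher in control replicate 3 (8.97) than in replicate 1 (8.69), as it was in both displaced arrays against their replicates, and in TQ replicates 2 and 3 it was low (8.45 and 8.41) but not in replicate 1 (8.84). With that signal as a covariate in limma, chosen after the data were seen, every call made over all arrays remained. With TQ 4 members rose and 11 fell in that fit (13.5% of all genes called), with 5-FU 4 rose and 21 fell (43.6%), and with the combination 0 rose and 21 fell (23.4%). Of the 17 members that rose with TQ without the displaced arrays 4 rose there too, and of the 14 that fell 11 fell. With 5-FU 2 of the 11 that rose and 8 of the 8 that fell were called so in both fits. With the combination 0 of the 3 that rose and 14 of the 15 that fell were. The differences with TQ were smaller there for MCM6 (0.34, adjusted p = 0.34), RFC3 (0.40, adjusted p = 0.37), ORC4 (0.32, adjusted p = 0.46), RPA1 (0.18, adjusted p = 0.60) and PRIM1 (0.07, adjusted p = 0.91).

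**Figure D4:**
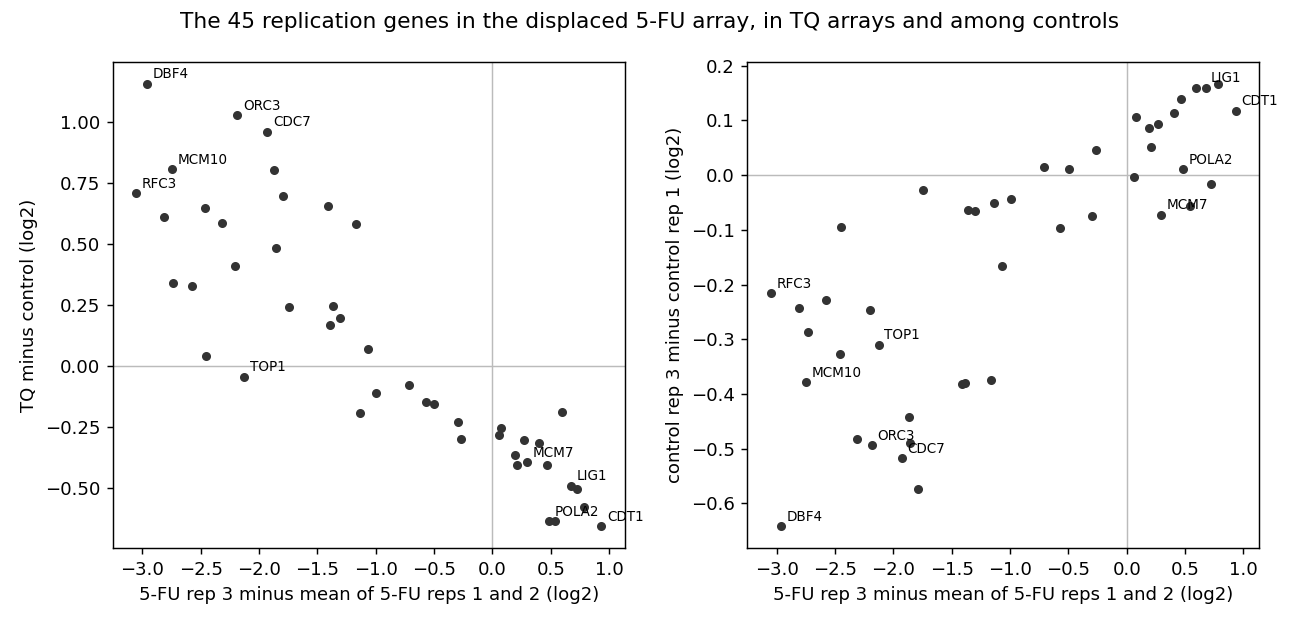
Each point is 1 of the 45 genes; the horizontal axis is 5-FU replicate 3 minus the mean of 5-FU replicates 1 and 2, and the vertical axis is TQ minus control (left) or control replicate 3 minus replicate 1 (right), all in log2. Genes such as DBF4 (-2.96) that dropped in the displaced array were high with TQ (1.16) and lower in control replicate 3 than in replicate 1 (-0.64), and the r over the genes is -0.88 on the left and 0.79 on the right.

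Interactions, the combination minus each drug alone plus control, were called for 13 members without the displaced arrays, where 11.1% of all genes had one. ORC3 had -1.30 (SE 0.24, adjusted p = 0.0098), WDHD1 -0.89 (adjusted p = 0.031), MCM10 -0.85 (adjusted p = 0.024), RFC3 -0.81 (adjusted p = 0.035), ORC4 -0.81 (adjusted p = 0.022) and CDC6 -0.66 (adjusted p = 0.014), each lower with both drugs than the sum of the single drugs. MCM7 was the exception with 0.38 (adjusted p = 0.049): it had fallen with each drug and fell by less with both than their sum. Over all arrays these values were not called, and ORC3 had -1.003 (adjusted p = 1.00). With the poly-A signal as a covariate, 1 of the 12 negative interactions passed and the positive one did not (8.07% of all genes called).

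Genes of the same process outside the list were also read over all arrays. Of 23 measured of 30 further replication genes, 2 rose and 1 fell with 5-FU (7.29% of all genes called): POLD4, a small subunit of polymerase delta, by 1.21 (SE 0.23, adjusted p = 0.012), RNASEH2A of ribonuclease H2 by 0.80 (adjusted p = 0.028), while SSRP1 of the histone chaperone FACT fell by 0.83 (adjusted p = 0.012). None passed with TQ or with both drugs, and 4 were lower with TQ than with 5-FU (11.1% of all genes called), the GINS subunit gene GINS4 (-0.93, adjusted p = 0.0098), POLD4 (-0.93, adjusted p = 0.033), RNASEH2A (-1.10, adjusted p = 0.0057) and the histone chaperone gene ASF1B (-1.15, adjusted p = 0.011). Of 8 measured genes of deoxynucleotide supply, TK1, thymidine kinase 1, rose with 5-FU (1.05, SE 0.20, adjusted p = 0.011) and was lower with TQ than with 5-FU (-1.30, SE 0.20, adjusted p = 0.0037), and no other passed over all arrays.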

How the data were processed

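The 12 arrays of RKO cell RNA form 4 groups of 3. Their signals were made by the authors with RMA and deposited as log2 values, which were used here without further scaling. The methods of the study name GeneSpring GX for this step and the labels Expression Console, and which of them made the values is not known. Of 22277 probe sets, 62 controls were left out. Of the 22215 tested, 19064 name 1 gene, 1043 several and 2108 none, and the brightest probe set stood for a gene.

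Differences come from limma 3.58.1 (R 4.3.3), with 1 mean per group, all 12 arrays in a single fit, empirical Bayes moderation and two-sided p-values adjusted by Benjamini-Hochberg over all probe sets at 0.05. Python 3.11.15 with matplotlib 3.10.9 made the figures. The fit was tested on simulated data. The members and gene lists were chosen with earlier results of these data known. Values in every array are given for each member that passed over all arrays, for up to 3 further members per role with the largest difference from control, and for members whose probe sets disagree; from the other lists those that passed are named. MCM2, MCM5 and PCNA were also described after their values were seen.

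The alternatives were the methods' ANOVA with Tukey's test and t-test, the compared groups only, a replicate block, quantile normalization, centring, a filter on the dimmest 30% of probe sets, array weights, another choice of probe set and leaving out each array. In the ANOVA with Tukey's test a gene passed where both Tukey's p and the Benjamini-Hochberg adjusted p of the ANOVA were under 0.05. Leaving out both displaced arrays and the poly-A signal as a covariate (mean of 24 spike-in probe sets) were added after the data were seen. Promoter sequences are those of RefSeq. Dixon's test was not applied to groups of 3. The RT-qPCR and blots of the study were not analysed here.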

Additional observations from a re-analysis of the deposited data

How the results depend on the processing

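No call made over all arrays turned its direction under any alternative run. Of members called without the displaced arrays, however, 6 with 5-FU, 1 for the combination against 5-FU, 1 for TQ against 5-FU and 1 interaction had the other sign over all arrays. Counts of members called depended on the displaced arrays and on the test. Leaving out both of them gave 31 with TQ, 19 with 5-FU, 18 with the combination, 8 for the combination against 5-FU, 11 against TQ, 27 for TQ against 5-FU and 13 interactions, and with the methods' ANOVA and Tukey's test on those arrays 23, 18, 14, 15, 9 and 22 (no interaction there). Of all genes, that ANOVA called 21.5%, 23%, 19.5%, 10.7%, 13.5% and 23.3%. Array weights gave 35, 25, 25, 18, 27, 31 and 26 members in the same order. There 50.7%, 38.5%, 44.5%, 21.8%, 46.6%, 42.6% and 38.3% of all genes were called. Adding the poly-A spike-in signal to the model gave 15, 25, 21, 11, 20, 32 and 1 members. The shares of all genes there were 13.5%, 43.6%, 23.4%, 13.5%, 33.5%, 53.9% and 8.07%. Over all arrays, ANOVA with Tukey's test gave 6 with TQ (3.06% of all genes called) and 2 with the combination (4.86%). It gave 6 for the combination against 5-FU (3.88%) and 2 against TQ (4.66%). The methods' t-test gave 18, 0 and 2 in the comparisons with control (17.5%, 1.41% and 2.89%). A fit of the compared groups only gave 28, 0 and 2 there (30.9%, 0.861% and 4.15%) and 0 for TQ against 5-FU (1.03%). Without the dimmest 30% of probe sets 4 passed with 5-FU, and with the probe set of largest variance 2 passed with the combination and 1 for the combination against 5-FU. Leaving out each array in turn gave 0 to 10 with TQ, 1 to 12 with 5-FU, 0 to 10 with the combination, 0 to 3 and 0 to 12 for the combination against 5-FU and TQ, 3 to 12 for TQ against 5-FU and 0 to 0 for the interaction. The highest of these came without 5-FU replicate 3. There 8.69%, 15.8%, 11.1%, 3.29%, 13.2%, 15.2% and 3.3% of all genes were called, in the same order. Without control replicate 1 the combination had 0. Without 5-FU replicate 1, the counts were 4 with 5-FU (7.77% of all genes called), 2 with the combination (2.61%) and 11 for TQ against 5-FU (20.2%). Without any 1 TQ array, 3 passed for TQ against 5-FU (3.8% to 5.81% of all genes), with ORC2, CDC45 and FEN1 lost. CHAF1B with 5-FU was lost without any control, TQ replicate 2 or 3, 5-FU replicate 2, or TQ+5-FU replicate 1 or 3, which left 1 call with 5-FU in most of these fits. The cause of these changes was not tested.

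The replicate number as a replicate block gave 1 call with 5-FU, the call of CHAF1B being lost (adjusted p = 0.062), and 4 for TQ against 5-FU, where CDC45 and FEN1 were lost (adjusted p = 0.056 and 0.060), and changed no other call. The labels do not say whether the numbers pair the arrays. Of 18 pairs of same-numbered arrays, 6 had deviations from their group means correlated above 0.1, and the correlations ran from -0.84 to 0.86. The displaced arrays weigh on deviations from means of 3 arrays, so these values cannot decide whether arrays are paired. Quantile normalization and centring of the arrays each gave 2 calls with 5-FU, with CHAF1B lost and ORC2 gained, and the same number of members called in every other comparison, while centring cut the genes called from 32 to 7 with TQ, from 315 to 196 with the combination, from 96 to 40 for the combination against 5-FU, from 138 to 76 against TQ and from 20 to 0 for the interaction. With 3 arrays a group, the number of arrays limits the precision, and small differences of dim probe sets were not detectable.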

Other observations

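Genes of mitosis, which follows replication in the cell cycle, were read in the same way. In 5-FU arrays CDC20 fell (-0.85, adjusted p = 0.026), and UBE2C (0.38, adjusted p = 0.032) and PTTG1 (0.61, adjusted p = 0.0069) rose by limma, where 7.29% of all genes were called. Of 14 mitosis genes, all measured, 5 were higher and 2 lower with TQ than with 5-FU by limma over all arrays, where 11.1% of all genes were called. The higher ones were BUB1B, a kinase of the spindle checkpoint (1.75, adjusted p = 0.047), AURKA, a spindle pole kinase (1.30, adjusted p = 0.028), the kinetochore genes CENPF (1.21, adjusted p = 0.0091) and CENPE (1.06, adjusted p = 0.016), and CDC20 (0.73, adjusted p = 0.040). UBE2C (-0.41, adjusted p = 0.020) and PTTG1 (-0.66, adjusted p = 0.0043) were lower. When 5-FU was added to TQ, CENPF fell by 1.26 (SE 0.22, adjusted p = 0.031), the 1 mitosis gene that passed there. Without the displaced arrays 9 were higher and 3 lower with TQ than with 5-FU (30.9% of all genes called), and 10 fell when 5-FU was added to TQ (12.7%).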
